A study of Mus musculus with 12 samples.

Results

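Hp1bp3, the heterochromatin protein 1 binding protein, was followed together with 6 relatives and partners in mouse hippocampus: the HP1 genes Cbx1, Cbx3 and Cbx5 and the linker histone genes H1f0, H1fx and Hist1h1c. The 7 genes were taken by symbol, with no threshold on a measured value but with earlier results of these data known, out of 22236 genes in the expression table, and all 7 passed the filter on low counts that left 15853 genes for testing. The question was whether transcripts of proteins that bind or resemble HP1BP3 moved when Hp1bp3 was lowered, and whether their levels differed between the mouse strains.

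By the sample labels the mice were males aged 3 to 5 months when a virus was injected (the methods of the study give a somewhat wider age range), of the inbred strains C57BL/6J (B6) or DBA/2J (D2). Every mouse, controls included, received adeno-associated virus serotype 9 on both sides of the dorsal hippocampus: AAV-shRNA-Hp1bp3 in the knockdown (KD) groups and AAV-scrmb-shRNA, a scrambled hairpin, in the control (Ctrl) groups. No uninjected group was analysed here, so an effect shared by both viruses is not seen. At least 6 weeks later the hippocampus was dissected and its RNA sequenced, 1 library per mouse and 3 libraries in each of the 4 strain by treatment groups. The virus was placed in the dorsal part while the dissected hippocampus was sequenced, so cells that the virus did not reach are part of each library, and fewer cells of a type and less RNA per cell cannot be told apart in such tissue.

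HP1BP3 carries globular domains related to that of the linker histones and binds nucleosomes and HP1 proteins. The HP1 proteins made by Cbx5 (HP1 alpha), Cbx1 (HP1 beta) and Cbx3 (HP1 gamma) read methylated lysine 9 of histone H3, the mark of heterochromatin, through a chromodomain. Linker histones bind where DNA enters and leaves the nucleosome. H1f0 encodes H1.0, the replacement linker histone of cells that no longer divide. H1fx encodes H1x, and Hist1h1c encodes H1.2, one of the variants of the histone cluster.

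The libraries held 18.2 to 39.4 M expected counts (M for 1000000). The pyramidal and granule cell markers of the hippocampus were present in every group, with summed levels of 339 to 538 counts per 1000000 (CPM), so the tissue label held. They were uneven between libraries: their mean log2(CPM + 1) ran from 4.91 in D2 KD 2 and 5.09 in D2 Ctrl 3 to 6.55 in B6 Ctrl 3. Markers of the choroid plexus, a tissue outside the hippocampus, varied widely between libraries of a group, from 77.9 to 2702 CPM in B6 Ctrl, 142 to 5019 CPM in B6 KD, 189 to 5005 CPM in D2 Ctrl and 58.5 to 5078 CPM in D2 KD. A list of 8 interferon response genes, among them Ifit1, Ifit3, Isg15, Irf7, Usp18, Rsad2 and Oas1a, had all 8 called higher in B6 KD, against 2.64% of all genes called. Their summed levels were 320 to 951 CPM in B6 KD against 58.9 to 67.6 CPM in B6 Ctrl. In D2 the same sum was 64.7 to 165 CPM in Ctrl and 79.2 to 359 CPM in KD. None of the 8 genes was called there, where edgeR called 0% of all genes. All 8 D2 estimates were above 0, and 6 of 8 had an unadjusted edgeR p under 0.05, against 2.85% of all genes.

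The target was read first. Hp1bp3, on chr4:138216296-138244683 of GRCm38 on the plus strand, had normalized counts of 9372, 8826 and 9348 in B6 Ctrl 1 to 3 and of 5539, 5429 and 7633 in B6 KD 1 to 3. In D2 the counts were 6871, 6504 and 7002 in Ctrl 1 to 3 and 5337, 4878 and 6941 in KD 1 to 3. All 3 B6 KD libraries thus lay below all 3 B6 Ctrl libraries, and B6 KD 3 was the highest of them, at 83.1% of the Ctrl mean against 60.3% and 59.1% in the other two. The library labelled D2 KD 3 stood at 102.2% of the D2 Ctrl mean and so went against its label, while D2 KD 1 and 2 stood at 78.6% and 71.8%.

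The group means of Hp1bp3 were 9182 ± 308 (SD, n = 3) in B6 Ctrl and 6200.2 ± 1242 in B6 KD. The D2 means were 6792 ± 258 for Ctrl and 5719 ± 1083 for KD. By edgeR's quasi-likelihood test with Benjamini-Hochberg adjustment over all genes, the log2 fold change of KD against Ctrl averaged over the strains was −0.39 ± 0.11 (SE), with an adjusted p of 0.0907. The B6 value alone was −0.54 ± 0.15 (edgeR, adjusted p = 0.076). The D2 value was −0.25 ± 0.15 (edgeR, adjusted p = 1). The difference between the strains was 0.30 ± 0.21 (edgeR interaction, adjusted p = 0.943). The D2 value was −0.41 without the library labelled D2 KD 3 and −0.15 without D2 KD 2, with an adjusted p of 0.554 or more by edgeR in every fit without 1 library. The difference between the strains was 0.14 without the library labelled D2 KD 3 and 0.50 without B6 KD 3, with an adjusted p of 0.436 or more in these fits. An exact 2-sided permutation test of the mean log2 difference, exchanging treatment within strains, gave p = 0.015 for Hp1bp3, and the smallest p that its 400 assignments allow is 0.005. It was 1 of 7 such tests, 1 for each gene, and its p is not adjusted.

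The edgeR call depended on single libraries. Without B6 KD 3 the average change was −0.51 (adjusted p = 0.031) and without the library labelled D2 KD 3 it was −0.48 (adjusted p = 0.0283), while over the 12 fits that left out 1 library the adjusted p ran from 0.0283 to 0.196. DESeq2 on the same counts gave −0.41 ± 0.11 with an adjusted p of 0.00961, against a range of 0.00961 to 0.991 over the 12 alternatives fitted to all libraries.

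Across the 7 genes, edgeR called 0 for KD averaged over the strains, where it called 0% of all genes tested. At an unadjusted p under 0.05 it gave 3 of 7 (Hp1bp3, the target itself, H1fx and Hist1h1c), against 19.2% of all genes. DESeq2 called the same 3, against 7.83% of all genes, and limma-voom called 0 of 7 and 0% of all genes. Within B6, edgeR called 0 of 7 against 2.64% of all genes, 418 genes. These shares rest on single libraries: with 1 library left out the B6 count over all genes ran from 0 to 790, and the count averaged over the strains from 0 to 799. In B6 limma-voom called 0 of 7 against 2.32%. DESeq2 called 2 of 7 there, Hp1bp3 and Hist1h1c, against 10.6%, and 3 of 7 had an unadjusted edgeR p under 0.05, against 20.6%. Within D2, 0 of 7 were called by edgeR (0% of all genes), limma-voom (0%) or DESeq2 (0.00631%), and 0 of 7 had an unadjusted edgeR p under 0.05, against 2.85% of all genes. The strain by treatment interaction gave 0 of 7 by edgeR (0% of all genes), limma-voom (0%) and DESeq2 (0.0694%), and 0 of 7 at an unadjusted edgeR p under 0.05, against 5.91%.

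**Figure D1:**
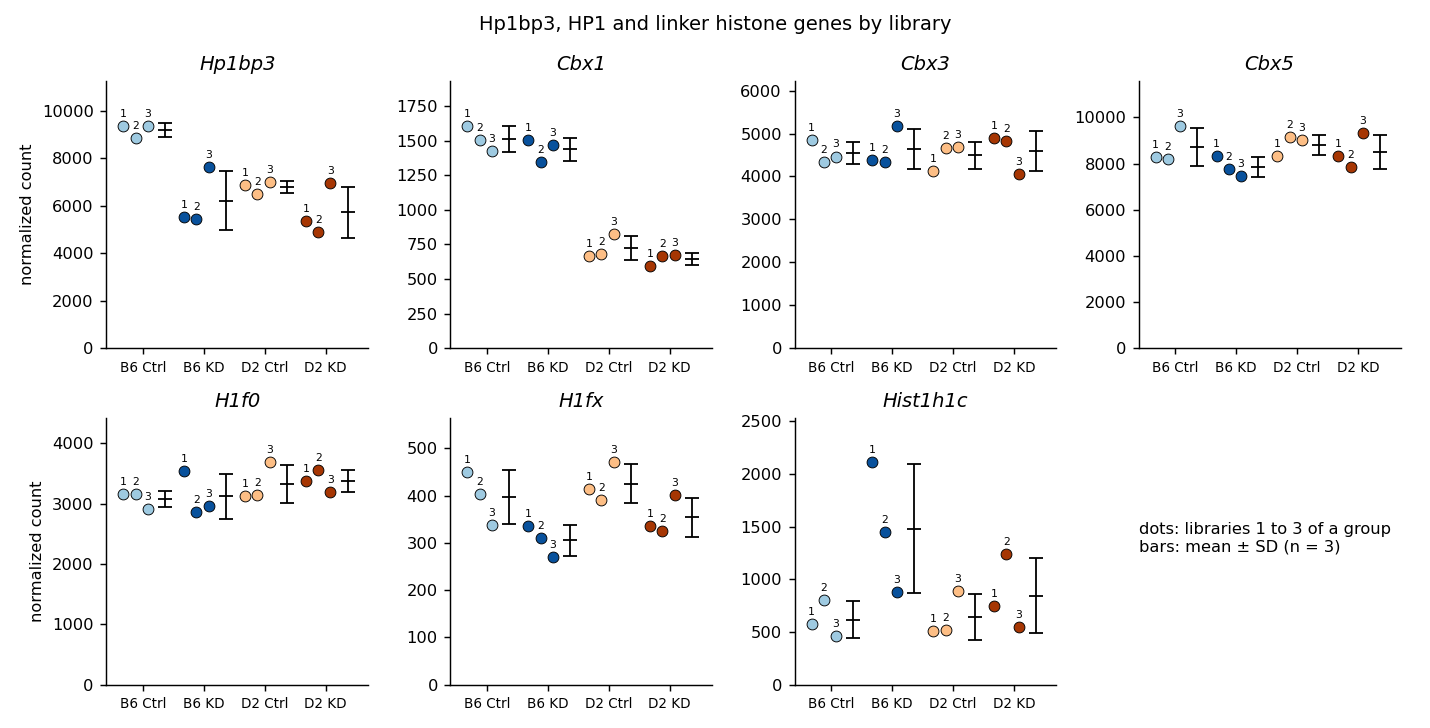
Normalized count of each of the 7 genes (linear axis from 0) in libraries 1 to 3 of the 4 groups, with the group mean ± SD (n = 3) beside the dots. Hp1bp3 and H1fx lie lower and Hist1h1c higher in all 3 B6 KD libraries than in all 3 B6 Ctrl libraries, and Cbx1 separates the strains.

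The HP1 genes stayed close to their control levels. Cbx1, on chr11:96789127-96808640 on the plus strand, had counts of 1611, 1509 and 1425 in B6 Ctrl and of 1504, 1344 and 1469 in B6 KD. In D2 it had 669, 680 and 824 in Ctrl and 596, 666 and 676 in KD. Ctrl and KD libraries overlapped in both strains. Averaged over the strains the log2 fold change was −0.11 ± 0.07 (edgeR, adjusted p = 0.443), with a 95% interval of 0.832-fold to 1.04-fold.

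Cbx3, on chr6:51470360-51483704 on the plus strand, had counts of 4840.4, 4345 and 4464 in B6 Ctrl and of 4392, 4342 and 5185 in B6 KD. In D2 its counts were 4136, 4666 and 4691 in Ctrl and 4890.0, 4832 and 4064 in KD. The libraries of the 4 groups were interleaved, and the average log2 fold change was 0.04 ± 0.07 (edgeR, adjusted p = 0.781), with a 95% interval of 0.92-fold to 1.15-fold. GENCODE M21 lists 8 processed pseudogenes of Cbx3, none of which had a row in the table, so reads shared with these copies make its count uncertain.

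Cbx5, on chr15:103191544-103239816 on the minus strand, had counts of 8294, 8199.8 and 9647 in B6 Ctrl and of 8322, 7770 and 7472 in B6 KD. In D2 its counts were 8323, 9141 and 9000 in Ctrl and 8329, 7866 and 9305 in KD. These groups overlapped as well, and the average log2 fold change was −0.09 ± 0.07 (edgeR, adjusted p = 0.487), with a 95% interval of 0.851-fold to 1.04-fold. For the 3 HP1 genes a rise above 1.15-fold averaged over the strains thus lay outside these intervals, which rest on libraries that include the one labelled D2 KD 3.

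H1f0, the linker histone gene with the highest counts here, lies on chr15:79028450-79030504 on the plus strand. It had counts of 3154, 3159 and 2916 in B6 Ctrl and of 3547, 2855 and 2964 in B6 KD. The D2 counts were 3129.7, 3145 and 3685 in Ctrl and 3376, 3556 and 3196 in KD. KD and Ctrl libraries overlapped in both strains, and the average log2 fold change was 0.04 ± 0.07 (edgeR, adjusted p = 0.817), with a 95% interval of 0.918-fold to 1.14-fold.

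H1fx lies on chr6:87980421-87981637 on the minus strand and was the least abundant of the 3 linker histones by count. Its counts were 450.2, 402 and 338 in B6 Ctrl and 336, 310.2 and 270.4 in B6 KD, so the B6 groups did not overlap, though B6 Ctrl 3 and B6 KD 1 lay close together. In D2 they were 414, 391 and 470.4 in Ctrl and 335, 325 and 402 in KD, where the library labelled D2 KD 3 overlapped the controls. The log2 fold change was −0.31 ± 0.10 averaged over the strains (edgeR, adjusted p = 0.136), with −0.35 ± 0.14 in B6 alone (adjusted p = 0.185). The D2 estimate was −0.26 ± 0.14 (edgeR, adjusted p = 1). The exact permutation test within strains gave p = 0.015 (2-sided, not adjusted). DESeq2 gave −0.32 ± 0.11 with an adjusted p of 0.0498, and over the 12 alternatives fitted to all libraries the adjusted p ran from 0.0498 to 0.91.

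Hist1h1c varied most. The gene lies on chr13:23738808-23740367 on the plus strand, in the large histone cluster. It had normalized counts of 575, 808 and 464 in B6 Ctrl and of 2109.8, 1452 and 881 in B6 KD. In D2 the counts were 506, 521 and 889.8 in Ctrl and 749, 1239 and 552 in KD. In B6 all 3 KD libraries were above all 3 Ctrl libraries, and B6 KD 3, the library with the most Hp1bp3 left, was the lowest of the 3. In D2 the groups overlapped: D2 Ctrl 3 was above D2 KD 1, and the library labelled D2 KD 3 was within the control range.

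The group means of Hist1h1c were 616 ± 176 (SD, n = 3) in B6 Ctrl and 1481 ± 615 in B6 KD, 2.41 times as much. They were 639 ± 217 in D2 Ctrl and 846 ± 354 in D2 KD, 1.32 times as much. In B6 the log2 fold change was 1.29 ± 0.38 (edgeR, adjusted p = 0.0915), with a 95% interval of 1.36-fold to 4.39-fold. In D2 it was 0.41 ± 0.38 (edgeR, adjusted p = 1), and averaged over the strains 0.85 ± 0.27 (adjusted p = 0.134). The difference between the strains was −0.88 ± 0.54 (edgeR interaction, adjusted p = 0.901). The exact permutation test within strains gave p = 0.045 (2-sided, not adjusted).

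DESeq2 called Hist1h1c in B6, with 1.27 ± 0.38 and an adjusted p of 0.0135, and averaged over the strains, with an adjusted p of 0.03. Over the alternatives other than leaving out a library, its adjusted p ran from 0.0135 to 0.876 in B6 and from 0.03 to 0.917 averaged over the strains. Leaving out B6 KD 3 also brought the edgeR call in B6, with 1.52 and an adjusted p of 0.0466, and without B6 KD 1 the change was 0.91.

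**Figure D2:**
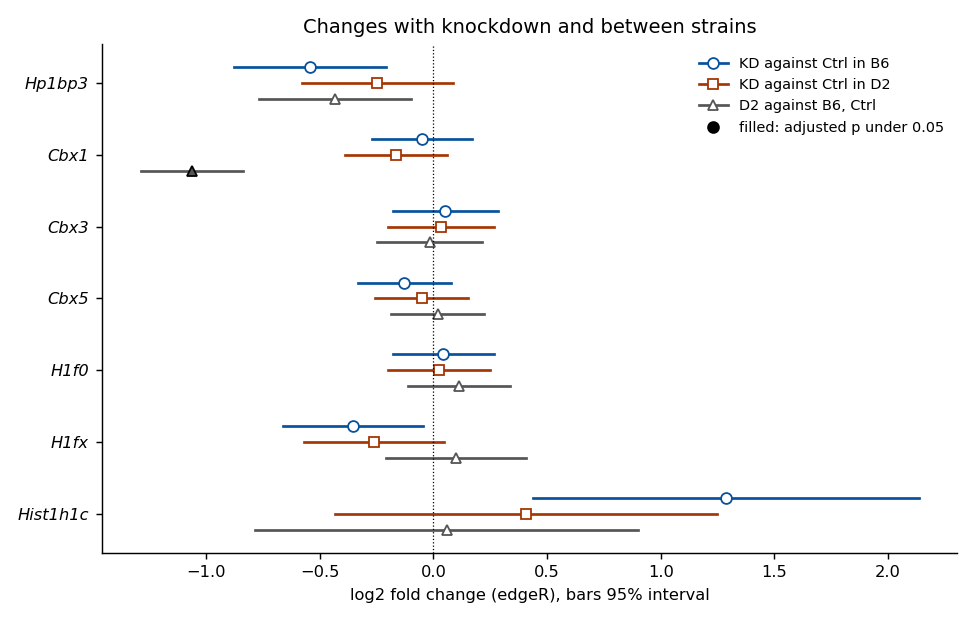
Log2 fold change by edgeR of each gene (dot) with its 95% interval (bar) for the knockdown in each strain and for D2 against B6 in Ctrl, filled where the adjusted p was under 0.05. The one filled symbol is Cbx1 between the strains, at −1.06, and the widest intervals are those of Hist1h1c.

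The libraries did not overlap between KD and Ctrl in B6 for 3 of the 7 genes (Hp1bp3, the target itself, H1fx and Hist1h1c), against 28.8% of all genes. In D2 this held for 0 of 7, against 6.06% of all genes.

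The level of Hist1h1c followed other gene groups from library to library. The interferon score, the mean log2(CPM + 1) of the 8 interferon genes, was 6.04, 6.47 and 4.81 in B6 KD 1 to 3 and 2.29 to 2.57 in B6 Ctrl. It was 4.51 and 5.01 in D2 KD 1 and 2, 2.85 in the library labelled D2 KD 3, 2.43 and 2.64 in D2 Ctrl 1 and 2, and 3.84 in D2 Ctrl 3. The lowest KD library for Hist1h1c in each strain was also the lowest for the score, and D2 Ctrl 3 was the highest D2 Ctrl library for both. The pyramidal and granule cell markers were lowest in D2 KD 2 (mean log2(CPM + 1) of 4.91) and D2 Ctrl 3 (5.09), the libraries of their groups with the most Hist1h1c. In B6 these markers were lowest in B6 KD 2 (5.63), while Hist1h1c was highest in B6 KD 1 (6.08 for the markers). The 5 markers of dividing cells (Mki67, Top2a, Ccnb1, Cdk1 and Birc5) summed to 4.01 to 5.37 CPM in B6 Ctrl and 9.57 to 25.5 CPM in B6 KD, with B6 KD 1 at the top for them and for Hist1h1c, while in D2 KD they were highest in D2 KD 1 and Hist1h1c in D2 KD 2. In D2 the same sum was 6.16 to 12 CPM in Ctrl and 5 to 15 CPM in KD. In B6 KD 1 of the 5 markers was called higher, against 2.64% of all genes called. The 5 microglia markers (Cx3cr1, P2ry12, Tmem119, Csf1r and C1qa) summed to 250 to 296 CPM in B6 Ctrl and 346 to 553 CPM in B6 KD, against 241 to 392 and 249 to 413 CPM in D2 Ctrl and KD. For knockdown 0 of 5 were called, against 2.64% of all genes in B6 and 0% in D2. In B6 all 5 estimates were above 0 and 4 of 5 had an unadjusted edgeR p under 0.05, against 20.6% of all genes. In D2, 3 of 5 were above 0 and 0 of 5 had such a p, against 2.85%. The 5 astrocyte markers (Gfap, Aqp4, Slc1a3, Aldoc and Gja1) summed to 2364 to 2546 CPM in B6 Ctrl and 3184 to 4391 CPM in B6 KD. Their D2 sums were 2358 to 4609 CPM in Ctrl and 2374 to 3669 CPM in KD. For knockdown in B6, 1 of 5, Aqp4, was called higher, against 2.64% of all genes. The 5 did not move together there. Their log2 fold changes in B6 were 1.6959 (Gfap), 1.2016 (Aqp4), 0.1147 (Gja1), 0.0975 (Slc1a3) and −0.3783 (Aldoc). Aldoc was thus lower, with an unadjusted edgeR p of 0.0327, and the sum does not stand for each marker. No marker of the interferon, dividing cell, microglia and astrocyte lists was at 0 throughout.

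With the interferon score as a covariate the estimates of Hist1h1c and of Hp1bp3 in B6 became −0.62 and 0.09 (edgeR, adjusted p = 0.867 and 0.95). The score separates KD from Ctrl in B6 without overlap, so in that strain the score and the knockdown cannot be told apart, and their parts in either result were not tested.

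**Figure D3:**
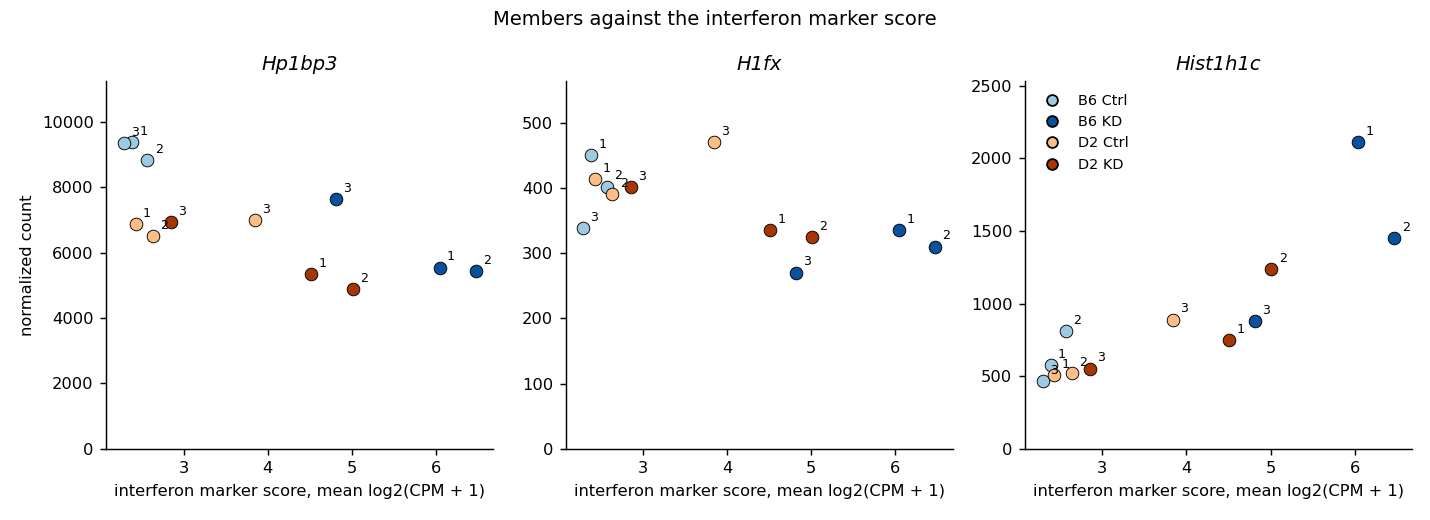
Normalized count of Hp1bp3, H1fx and Hist1h1c in each of the 12 libraries (number beside the dot) against the interferon score of that library, mean log2(CPM + 1) of 8 genes. Hist1h1c is highest at the right, at scores of 6.04 and 6.47 in B6 KD 1 and 2, and the library labelled D2 KD 3 lies among the controls in all 3 panels.

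Promoter windows of the linker histones are shown because those of Hist1h1c and of H1f0 and H1fx differ in the motifs found. RefSeq windows of 300 bases on GRCm38.p6, 250 before and 50 after the annotated start, matched all 7 genes. Both strands were searched for the H1 box AAACACA, the CCAAT box CCAAT, the TATA box TATAAA, an interferon element (GAAA, 2 bases of any kind, GAAA) and the GC box GGGCGG, and matches are in capitals below. Of all 32851 promoter windows, 7.18% hold an H1 box, 37.4% a CCAAT box, 13.6% a TATA box, 3.44% the interferon element and 35.7% a GC box. The windows are chr13:23738557-23738856 (plus strand) for Hist1h1c, chr13:23622509-23622808 (minus) for Hist1h1e, a neighbour in the cluster that encodes H1.4, chr15:79027962-79028261 (plus) for H1f0 and chr6:87981433-87981732 (minus) for H1fx, each written 5′ to 3′ on its own strand and from the B6 reference.
Hist1h1c: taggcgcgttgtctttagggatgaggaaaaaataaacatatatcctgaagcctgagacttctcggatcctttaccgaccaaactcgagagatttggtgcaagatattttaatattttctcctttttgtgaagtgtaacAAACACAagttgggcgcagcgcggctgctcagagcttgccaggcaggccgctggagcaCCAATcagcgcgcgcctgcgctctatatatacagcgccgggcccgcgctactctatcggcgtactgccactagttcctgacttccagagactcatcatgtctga
Hist1h1e: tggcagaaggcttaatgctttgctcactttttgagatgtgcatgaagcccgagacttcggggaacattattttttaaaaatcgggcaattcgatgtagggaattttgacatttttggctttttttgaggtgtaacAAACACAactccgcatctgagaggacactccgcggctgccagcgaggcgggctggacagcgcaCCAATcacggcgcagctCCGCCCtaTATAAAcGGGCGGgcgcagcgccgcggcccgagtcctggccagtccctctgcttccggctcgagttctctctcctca
H1f0: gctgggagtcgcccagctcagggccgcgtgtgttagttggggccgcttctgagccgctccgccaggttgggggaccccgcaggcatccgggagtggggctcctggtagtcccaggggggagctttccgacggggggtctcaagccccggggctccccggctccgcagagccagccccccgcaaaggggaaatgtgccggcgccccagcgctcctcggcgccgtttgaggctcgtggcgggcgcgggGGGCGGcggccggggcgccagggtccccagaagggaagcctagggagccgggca
H1fx: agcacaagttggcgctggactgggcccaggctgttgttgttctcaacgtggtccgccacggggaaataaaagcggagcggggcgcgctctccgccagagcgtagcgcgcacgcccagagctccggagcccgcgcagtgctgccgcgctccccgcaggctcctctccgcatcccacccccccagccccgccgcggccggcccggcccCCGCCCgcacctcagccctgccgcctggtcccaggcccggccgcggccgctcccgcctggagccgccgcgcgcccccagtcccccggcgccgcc
Hist1h1c and Hist1h1e share an H1 box, 112 and 115 bases before the start, and a CCAAT box nearer to it. The windows of H1f0 and H1fx hold neither. A GC box does not set them apart: it is in both of these windows and in that of Hist1h1e, and not in that of Hist1h1c. An H1 box was found in the windows of 5 of 6 linker histone genes of chromosome 13 and of 0 of 5 elsewhere, H1f0 among the latter. The H1f0 window follows the RefSeq start and ends at 79028261, before the gene start of 79028450 in GENCODE M21. The bases directly before that GENCODE start were not searched, so an H1 box of H1f0 there would be missed. Hist1h1c and H1fx hold no match to the interferon element in these windows, which says only that these letters are not in them.

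Among the other linker histones, Hist1h1d and Hist1h1e passed the filter and 6 did not. Transcripts of cluster histones mostly end in a stem-loop rather than a poly(A) tail, and mRNA libraries capture few of those. Hist1h1d, which encodes H1.3, had counts of 4.1, 12.6 and 9.6 in B6 Ctrl and of 21.2, 15.7 and 25.3 in B6 KD, without overlap. Its D2 counts, 14.1, 5.1 and 18.9 for Ctrl and 12.7, 15.0 and 8.6 for KD, overlapped. Its log2 fold change in B6 was 1.30 ± 0.49 (edgeR, adjusted p = 0.166). Hist1h1e had 14.8, 13.8 and 13.9 in B6 Ctrl and 66.1, 28.8 and 6.7 in B6 KD, so its B6 KD libraries lay on both sides of the controls. In D2 it had 98.7, 80.5 and 102.1 in Ctrl and 62.2, 181.6 and 64.1 in KD. Its difference between the strains was called, with D2 Ctrl 6.62 times B6 Ctrl (log2 fold change 2.74 ± 0.68, edgeR, adjusted p = 0.02), and the KD libraries of the strains overlapped. Hist1h1a, Hist1h1b, Hist1h1t, H1foo, H1fnt and Hils1 had at most 5.2 normalized counts in any library.

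Among the 7 genes, Cbx1, the gene of HP1 beta, was the one that edgeR called between the strains. D2 Ctrl had 724 ± 86.8 (SD, n = 3) normalized counts and B6 Ctrl 1515 ± 92.8, so D2 had 47.8% of the B6 level. The lowest B6 Ctrl library, at 1425, was far above the highest D2 Ctrl library, at 824. The log2 fold change was −1.06 ± 0.10 (edgeR, adjusted p = 2.82e-05), with a 95% interval of 0.41-fold to 0.56-fold. Under knockdown D2 had 44.9% of the B6 level, also without overlap. The adjusted p ran from 7.39e-21 to 0.000221 over the 12 alternatives fitted to all libraries. Alignment used a separate genome for each strain, so strain and alignment reference cannot be told apart for Cbx1. The same holds for every strain difference given here, those of Hp1bp3, Hist1h1e, Adnp, Cbx7, Drosha and Tarbp2 among them.

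Hp1bp3 itself was lower in D2 Ctrl than in B6 Ctrl, at 74% of its level and without overlap. The log2 fold change was −0.43 ± 0.15 (edgeR, adjusted p = 0.0912, with 0.0412 to 0.271 over the alternatives fitted to all libraries), and the D2 Ctrl mean of 6792 was near the B6 KD mean of 6200.2. The other 5 genes had strain differences between −0.02 and 0.11 on the log2 scale. For D2 against B6 in Ctrl, edgeR called 1 of 7 genes against 14% of all genes, limma-voom 1 of 7 against 13.6% and DESeq2 2 of 7, Cbx1 and Hp1bp3, against 16.9%. At an unadjusted edgeR p under 0.05 there were 2 of 7, against 23.2%, and 2 of 7 did not overlap between the strains, against 31.6% of all genes.

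Levels between genes were compared as CPM per kilobase of exon, with the exon lengths of GENCODE M21. Hist1h1c is a cluster histone gene, and mRNA libraries capture few transcripts without a poly(A) tail. Its place among the other genes therefore holds only for the transcripts captured. In B6 Ctrl the order was H1f0 (49.6 ± 2.16 CPM per kilobase, SD, n = 3), Hp1bp3 (36 ± 1.08), Cbx5 (32 ± 3), Cbx3 (25.1 ± 1.31), Hist1h1c (13.1 ± 3.81), Cbx1 (11.7 ± 0.651) and H1fx (10.8 ± 1.5). Hp1bp3 and Cbx5 overlapped between libraries, as did Hist1h1c with Cbx1 and Cbx1 with H1fx, and the other neighbours were separate. In D2 Ctrl, Hp1bp3 (26.7 ± 1.11) was below Cbx5 (32.4 ± 1.76) and overlapped Cbx3 (24.8 ± 1.86), and Cbx1 (5.62 ± 0.715) was last and separate from H1fx (11.6 ± 1.19). In B6 KD, Hist1h1c (31.9 ± 13.1) came directly after H1f0 (51.1 ± 5.95), with a range of 19.2 to 45.3 that overlapped Cbx5 (29.3 ± 1.44).

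Summed per length, the HP1 genes gave 68.9 ± 2.62 CPM per kilobase in B6 Ctrl and 66.7 ± 2.78 in B6 KD. The D2 sums were 62.9 ± 4.04 for Ctrl and 61.8 ± 0.551 for KD. The 3 linker histones gave 73.5 ± 6.70 in B6 Ctrl and 91.3 ± 18.7 in B6 KD, with single KD libraries at 112, 86.3 and 75.7, the last within the Ctrl range of 66.2 to 79.4. Hist1h1c took 17.6% ± 3.61 (SD, n = 3) of that linker histone sum in B6 Ctrl and 33.9% ± 7.75 in B6 KD, where H1f0 took 67.7% ± 3.35 and 56.7% ± 7.07. These are shares of the captured transcripts and not of all linker histone transcripts in the tissue. In B6 the difference KD minus Ctrl was −11.27 CPM per kilobase for Hp1bp3 and 18.81 for Hist1h1c. In D2 it was −4.17 for Hp1bp3 and 4.43 for Hist1h1c, the latter from 3 KD libraries of which 1, the one labelled D2 KD 3, had Hp1bp3 at the Ctrl level. Within the HP1 genes, Cbx1 took 17.1% ± 1.36 in B6 Ctrl and 8.92% ± 0.813 in D2 Ctrl, and Cbx5 46.4% ± 3.10 and 51.6% ± 0.872.

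**Figure D4:**
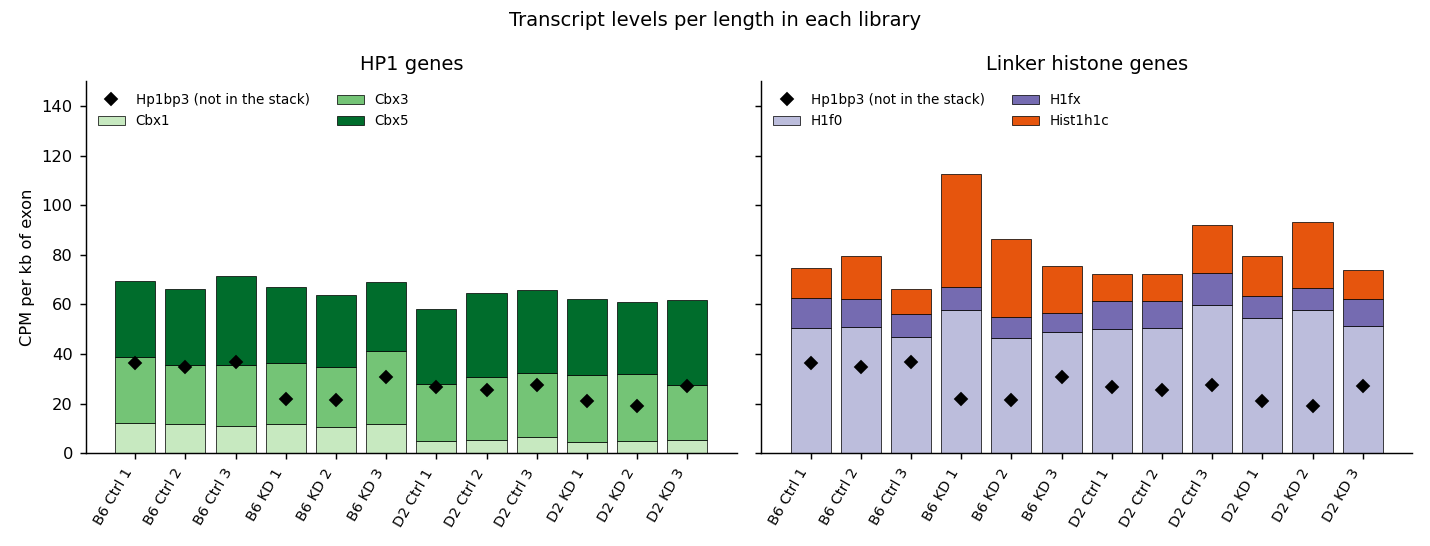
CPM per kilobase of exon in each library, stacked over the 3 HP1 genes (left) and the 3 linker histone genes (right), with Hp1bp3 as a diamond. The HP1 stacks are near level within a strain with less Cbx1 in D2, and Hist1h1c fills 25.3% to 40.3% of the linker histone stack in the 3 B6 KD libraries.

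Of 16 partners of HP1, such as the corepressor Trim28, the methyltransferases Suv39h1, Suv39h2 and Setdb1 and the nuclear envelope receptor Lbr, edgeR called 1 higher and 0 lower in B6 KD, and 0 in D2 KD or averaged over the strains. The shares of all genes called were 2.64% in B6 and 0% in the others, so 1 of 16 is no result about the list. The median log2 fold change of the 16 in B6 was −0.07, against 0.00 over all genes. The one called, Sp100, is an interferon-inducible component of nuclear bodies. Its counts rose in B6, from 138, 191 and 98.5 in Ctrl to 674, 843 and 278 in KD (log2 fold change 2.08 ± 0.48, edgeR, adjusted p = 0.0488). The D2 counts were 114, 101 and 176 for Ctrl and 247, 342 and 109 for KD. The call was lost in 8 of the 12 fits without 1 library, with an adjusted p of 0.0226 to 0.197, and by limma-voom (adjusted p = 0.0731), without the filter (0.0539), in B6 alone (0.0682) and with each covariate (0.0695 to 0.851). Between strains, edgeR called 1 of the 16, against 14% of all genes. This was Adnp, a zinc finger and homeodomain protein that recruits HP1, with 822 ± 238 in B6 Ctrl and 6070 ± 441 in D2 Ctrl (log2 fold change 2.88 ± 0.21, edgeR, adjusted p = 3.37e-06). Its KD and Ctrl libraries overlapped within strains, and strain and alignment reference cannot be told apart for it.

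The 5 Cbx genes of the Polycomb complexes, which read methylated lysine 27 instead, gave 0 calls for knockdown. The shares of all genes called were 2.64% in B6 and 0% in D2 or averaged over the strains. In B6 all 5 estimates were below 0, with a median of −0.22, against 0.00 over all genes, and a range of −0.58 (Cbx2) to −0.12 (Cbx8). There 1 of 5 had an unadjusted edgeR p under 0.05, against 20.6% of all genes, so that count is no result about the list. Averaged over the strains 3 of 5 had such a p, all lower, against 19.2% of all genes in either direction. In D2 0 of 5 had one, against 2.85%. Between the strains 1 of 5 was called, against 14% of all genes. This was Cbx7 (log2 fold change −0.52 ± 0.13 in D2 Ctrl against B6 Ctrl, edgeR, adjusted p = 0.0215). B6 Ctrl had counts of 2259, 2188 and 1988 and B6 KD of 1919, 1739.5 and 1297, with a difference of −0.36 ± 0.13 on the log2 scale (edgeR, adjusted p = 0.158). D2 Ctrl had 1531, 1469.8 and 1481, and D2 KD had 1088, 1340.4 and 1347.

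Proteins that compete with linker histones on the nucleosome or carry them, 13 genes in all, gave 0 calls in any of the 5 comparisons by edgeR. The shares of all genes called were 2.64% for knockdown in B6, 14% between the strains and 0% in the others. Averaged over the strains 4 of 13 had an unadjusted p under 0.05 with a higher level and 1 with a lower one, against 19.2% of all genes in either direction. The median log2 fold change of the 13 was 0.06, against 0.01 over all genes. Hmgn2, a nucleosome-binding protein, had B6 counts of 2709.7, 2678 and 2591 for Ctrl and 3354, 2995 and 3016 for KD. Its D2 counts were 2565, 2503 and 2473 for Ctrl and 3571, 3097 and 2442 for KD (log2 fold change averaged over the strains 0.26 ± 0.08, edgeR, adjusted p = 0.127). KD was above Ctrl in all libraries but the one labelled D2 KD 3, and without that library the change was 0.33 (adjusted p = 0.0163, with 0.0163 to 0.26 when single libraries were left out). Hmgb2, an architectural protein abundant in dividing cells, had B6 counts of 169, 143 and 101 for Ctrl and 403, 233 and 244 for KD, and D2 counts of 135, 146 and 254 for Ctrl and 268, 388 and 136 for KD (log2 fold change averaged over the strains 0.84 ± 0.28, edgeR, adjusted p = 0.146). DESeq2 called it (adjusted p = 0.0478), as did edgeR without the library labelled D2 KD 3, with 1.00 (adjusted p = 0.0444, with 0.0444 to 0.299 when single libraries were left out). Its lowest KD library in D2 and its highest D2 Ctrl library are those of Hist1h1c.

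HP1BP3 has also been tied to the processing of microRNA precursors. Of 12 genes of that machinery, 8 were matched in the table and the 4 Argonaute genes Ago1 to Ago4 were not analysed here. The 8 gave 0 edgeR calls for knockdown in B6, in D2 or averaged over the strains, against 2.64%, 0% and 0% of all genes. The B6 estimates had a median of −0.06 on the log2 scale, against 0.00 over all genes. Drosha, the nuclease that cuts primary microRNAs, had normalized counts of 4921 ± 235 (SD, n = 3) in B6 Ctrl and 3996 ± 132 in D2 Ctrl. The KD means were 4247 ± 69.8 in B6 and 3973 ± 217 in D2, which edgeR did not call against Ctrl, and its strain difference of −0.30 ± 0.07 was called (edgeR, adjusted p = 0.0133). Tarbp2, a partner of Dicer, was also called lower in D2 Ctrl (−0.39 ± 0.11, edgeR, adjusted p = 0.0316). These were the 2 of 8 called between the strains, against 14% of all genes.

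**Figure D5:**
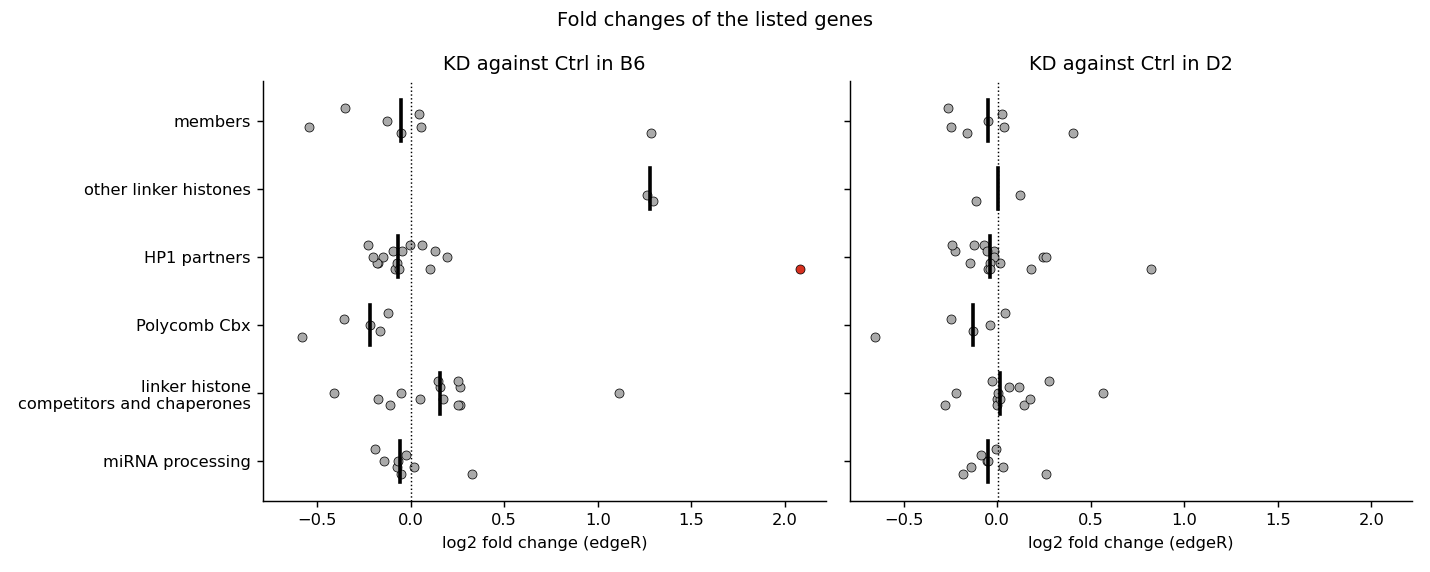
Log2 fold change by edgeR of each tested gene (dot, red where the adjusted p was under 0.05) by gene list, for the knockdown in B6 (left) and D2 (right), with the list median as a black bar and the median of all genes as a dotted line. Sp100 is the one red dot, at 2.08 in B6, and Hist1h1c, Hist1h1d and Hist1h1e are the linker histones near 1.3.

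The 5 genes whose levels ran most like Hp1bp3 over the 12 libraries were Rab35 (Pearson r of log2(CPM + 1) = 0.95), Mfhas1 (0.924), Morc2b (0.921), Zmynd11 (0.919) and Mfn2 (0.915), picked as the highest of 14181 genes. The 12 points share strain and treatment groups, and the r values are a description. Zmynd11 reads histone H3.3 methylated at lysine 36, and its B6 counts were 8563, 8166 and 8424 for Ctrl and 7209, 7173 and 7693 for KD. The D2 counts were 7228, 7286 and 7152 for Ctrl and 6761, 6409.8 and 7101 for KD. With Hp1bp3 the other members had r of 0.532 (Cbx1), 0.362 (H1fx), 0.311 (Cbx5), −0.04 (Cbx3), −0.45 (H1f0) and −0.595 (Hist1h1c).

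The 3 protein-coding genes on each side of Hp1bp3 on chromosome 4 were Alpl, Ece1 and Eif4g3 and, beyond it, Sh2d5, Kif17 and Ddost. For knockdown edgeR called 0 of 6, against 2.64% of all genes in B6 and 0% in D2 or averaged over the strains. Averaged over the strains all 6 estimates were above 0, from 0.06 (Eif4g3) to 0.25 (Ece1, adjusted p = 0.169), so the lower Hp1bp3 count was not shared by its neighbours.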

How the data were processed

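Hippocampal RNA of 12 mice was sequenced, 3 per strain by treatment group, grouped by the strain and treatment labels. Each library is 1 mouse. The titles number the mice in 1 series over all groups, which pairs none of them, and replicate numbers only name libraries. In B6 all KD mice have lower mouse numbers than all Ctrl mice, and in D2 all Ctrl mice have lower ones than all KD mice. Treatment and the order of the mouse numbers thus cannot be told apart within a strain, and the titles do not say what that order stands for. Per the labels, libraries were made with an mRNA kit. The methods of the study state that some samples shared a barcode in the first run and that reads of a repeat run were added for most. The authors aligned each strain's reads to its own genome and estimated genes with RSEM 1.2.12 and bowtie2 2.2.0, and the submitters' processing notes name GRCm38 and mm10. The annotation release was not given in the sources used here.

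The deposited expected counts were rounded to whole numbers for all tests. The deposited signal per gene is the authors' DESeq2 normalized count, printed here as the normalized count. Each value was the expected count cut to a whole number and divided by 1 factor per library, for 100% of 266508 values within 0.01 reads. edgeR on these recovered reads, an alternative added after the data were seen, called 420 genes for knockdown in B6, 0 in D2 and 0 averaged over strains. No deposited column of fold changes was used, and 27 symbols that a spreadsheet had turned into dates were restored by identifier. Identifiers were matched to GENCODE M21 (GRCm38) for positions and exon lengths.

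The main test was the quasi-likelihood test of edgeR 4.0.16 in R 4.3.3 (installed default method, robust, TMM, filterByExpr over the 4 groups), with 1 mean per group and 1 shared spread, and Benjamini-Hochberg adjusted p under 0.05 was called. Standard errors are the log2 fold change over the square root of F, so they and the 95% intervals are approximate. Alternatives were DESeq2 1.42.0, limma-voom 3.58.1, other normalization, filter and spread settings, covariates, and leaving out each library. The microglia and dividing cell scores were also added after the data were seen. The script was tested on simulated data with 200 changed genes. Libraries of a group differed by more than sampling noise (chi-square per degree of freedom 23.4 to 110), and depth was 18.2 to 39.4 M expected counts (M for 1000000). Intervals rest on the spread between libraries.

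The genes and lists were chosen with earlier results of these data known. Named genes were the 7 members, up to 4 called genes per list or else the 2 with the smallest p for KD averaged over strains, the 5 genes most like Hp1bp3 and its 6 neighbours. Setdb1, Trim28, Lbr, Suv39h1, Cbx2, Cbx8 and Hist1h1d were named in addition, after their values were seen. Some listed genes entered the counts and are not reported here by name.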

Additional observations from a re-analysis of the deposited data

Results flagged for a closer look

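Among the 7 genes, the gene lists and the neighbours of Hp1bp3, 1 gene, Suv39h2, had all KD libraries of one strain on one side of the controls and all KD libraries of the other strain on the opposite side. Over all genes, KD and Ctrl libraries did not overlap for 28.8% in B6 and 6.06% in D2, in either direction. The share of all genes with opposite directions was not counted, so 1 gene is no result about these lists. Suv39h2, a methyltransferase of lysine 9 of histone H3, had normalized counts of 201, 160 and 180 in B6 Ctrl and 152, 157 and 156 in B6 KD, and of 161, 159 and 145 in D2 Ctrl and 181, 186 and 190 in D2 KD. The difference between the strains in the KD change was 0.46 on the log2 scale (± 0.18, SE), with an unadjusted p of 0.0231 and an adjusted p of 0.821 by edgeR's interaction test, so it was not called. The changes were −0.20 ± 0.12 in B6 and 0.26 ± 0.12 in D2.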

How the results depend on the processing

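The call of Cbx1 between the strains held in all 12 alternatives fitted to all libraries and all 12 fits that left out a library. With DESeq2 the number of the 7 genes called became 3 for the knockdown averaged over strains, 2 in B6 and 2 between the strains, against 0, 0 and 1. Leaving out single libraries gave 0 to 1, 0 to 2 and 1 to 2, and 0 to 0 in D2 and for the interaction. Over all genes, the knockdown calls in B6 were 418 by edgeR (279 higher, 139 lower) and 1688 by DESeq2 (915 higher, 773 lower). Averaged over strains they were 0 by edgeR and 1241 by DESeq2. With the total count, choroid plexus or interferon score as a covariate the B6 calls were 0, as they were without B6 Ctrl 1, B6 Ctrl 3, B6 KD 1, B6 KD 2 or D2 Ctrl 1. They were 45 without D2 Ctrl 2, 124 without D2 KD 1, 237 without B6 Ctrl 2, 673 without the library labelled D2 KD 3 and 790 without B6 KD 3. The averaged calls were 400 without B6 KD 3, 326 without D2 Ctrl 3 and 799 without that labelled D2 KD 3. The cause was not tested.

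With the interferon score as a covariate, log2 fold changes averaged over strains, in B6 and for the interaction became 0.0219, 0.0912 and −0.1385 for Hp1bp3. Averaged over strains, in B6 and in D2 they became −0.0278, −0.0515 and −0.0041 for Cbx3, −0.1525, −0.2362 and −0.0687 for H1f0 and −0.4337, −0.6171 and −0.2504 for Hist1h1c. The Hist1h1c interaction became 0.3667 and its strain difference −0.2896, Sp100 in B6 −0.6798 and Hmgb2 averaged over strains −0.3706. Those for microglia and dividing cells were chosen after seeing the data. With microglia, the interaction became −0.0144 for Hp1bp3 and 0.164 for Hist1h1c, H1f0 became −0.0638 averaged and −0.1446 in B6, and the Hist1h1c strain difference −0.1738. With dividing cells, Cbx3 in B6 became −0.0147, H1f0 −0.0795 averaged and −0.1754 in B6, and the Hist1h1c strain difference −0.2984. With the total count, Cbx3 between strains became 0.0124 and H1f0 in D2 −0.0066.

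Leaving out single libraries also turned the sign of estimates near 0. Cbx3 ran from −0.0258 to 0.0836 averaged, from −0.0717 to 0.0809 in B6, from −0.0366 to 0.1163 in D2 and from −0.0537 to 0.0443 between strains. H1f0 ran from −0.0357 to 0.0785 averaged, from −0.0841 to 0.0878 in B6 and from −0.0274 to 0.114 in D2. Between strains Cbx5 ran from −0.0292 to 0.1072 and Hist1h1c from −0.266 to 0.2972, and the H1fx interaction from −0.0061 to 0.2066. Without D2 KD 2 the D2 estimate of Hist1h1c was 0.02. Of the genes called, Sp100 lost its call in 8 of these 12 fits and in other alternatives. Cbx7, Drosha, Tarbp2 and Hist1h1e each lost the strain call in some, with an adjusted p of at most 0.124. With 3 libraries a group, a smaller difference may have been missed.

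No paired analysis was possible because the replicate numbers were given in order and tie no mouse of one group to a mouse of another.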
